A study of Mus musculus with 4 samples.

Results

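The matrix metalloproteinases (MMPs), the ADAM and ADAMTS proteases and their inhibitors, the TIMPs, were followed in macrophages grown from mouse bone marrow. Members were all genes whose symbol starts with Mmp, Adam, Adamts or Timp and goes on with a digit. The rule itself used no measured value, but the members were chosen with earlier results of these data known. It gave 78 of the 23284 symbols listed: 16 secreted MMPs, 7 MMPs held at the membrane, 32 ADAMs, 19 ADAMTS genes and 4 TIMPs. The design compared 2 libraries labelled wild type with 2 labelled Sema6D-/-, in which the gene of the membrane semaphorin Sema6D is disrupted on both copies. All 4 libraries came from macrophages of C57BL/6 mice aged 7 weeks, and all were given IL-4, a cytokine of alternative activation, for 24 h. The genotype label gives the groups and each direction below, and the first letter of a title is K for the genotype wild type but W for Sema6D-/-. Whether the labels were exchanged cannot be told from these files, and if they were, each direction, fold and ratio below would be turned round. The labels do not say that the libraries of 1 genotype came from separate mice or cultures, so the p-values reflect the spread among these libraries and no more, a spread that may be technical.

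MMPs are zinc proteases that are made as inactive proforms and cut collagens, elastin, gelatin and other matrix and signalling proteins. Most are secreted, and a few are anchored to the membrane. ADAMs are mostly membrane proteins, many of which cut the outer parts of other membrane proteins and so release cytokines and receptors. ADAMTS proteases are secreted and act on proteoglycans, procollagens and other matrix proteins. TIMPs bind the active site of these enzymes. Macrophages are known as a main source of MMP12, the macrophage elastase, and use ADAM17 to release TNF.

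Levels are FPKM, fragments scaled by transcript length and library size, given for wild type replicates 1 and 2 and then for Sema6D-/- replicates 1 and 2. By an estimate from the low values, 1 fragment was worth 0.106 to 0.118 FPKM for a 1 kb transcript. FPKM summed to between 527755 and 563890 in a library. Sema6d itself was at 0.166 and 0.389 FPKM in the wild type libraries and at 0.106 and 0.315 under Sema6D-/-, values that overlap and do not check the genotype. Marker counts use the test described below, in which 4.8% of all genes tested were higher and 4.91% lower. All 10 macrophage markers looked for passed the filter, 2 of them higher and 3 lower under the label Sema6D-/-, and their FPKM summed to 5988 and 5699 against 5379 and 5403. Markers of neutrophils and other granulocytes differed: 6 of 10 tested were higher under the label Sema6D-/- and 1 lower, and the 13 found summed to 241 and 227 against 781 and 638 FPKM. Of those 10, Mpo (called), Elane and Retnlg passed the filter only through the label Sema6D-/-, where they were high, and so had to differ. The 7 markers of mast cells, basophils and eosinophils summed to 1.93 and 1.49 against 12.4 and 7.08. For the 6 osteoclast markers the sums were 298 and 302 against 242 and 273, with 1 of 4 tested lower and Calcr listed at 0 in each library. The 9 fibroblast markers summed to 6.06 and 11.9 against 8.80 and 6.06, highest in wild type replicate 2, with 0 of 3 tested called. These levels moved with the labels or with 1 library, and their part in the results below was not tested. In such bulk libraries, fewer cells of a type and less RNA per cell cannot be told apart.

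Of the 78 members, 15 reached a mean of 1 FPKM over the 4 libraries and were tested with limma on log2(FPKM + 1), with Benjamini-Hochberg adjustment over all 10115 genes tested and a threshold of 0.05. Mmp19, Mmp27, Adam10 and Timp2 were higher in the libraries labelled Sema6D-/-. Mmp14, Mmp9 and Timp1 were lower. That is 7 of 15 tested members, beside 9.72% of all genes tested (4.8% higher and 4.91% lower). The other 8, Mmp12, Mmp13, Mmp8, Adam8, Adam9, Adam15, Adam17 and Adamts10, did not pass. The median difference of the 15 was -0.01, against 0.00 over all genes. Libraries did not overlap between labels for 11 of the 15 members, beside 56.2% of all genes tested. A member that passed the filter only through 1 label had to differ, which was so for Mmp14. With 1 library left out, the difference of Mmp14 ran from -2.80 to -2.31. The filter still used the mean of all 4 libraries in these fits, so they do not test this limit of Mmp14. Each of the other 6 called members lost its call in more than 1 of these 4 fits, as given with each gene.

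**Figure D1:**
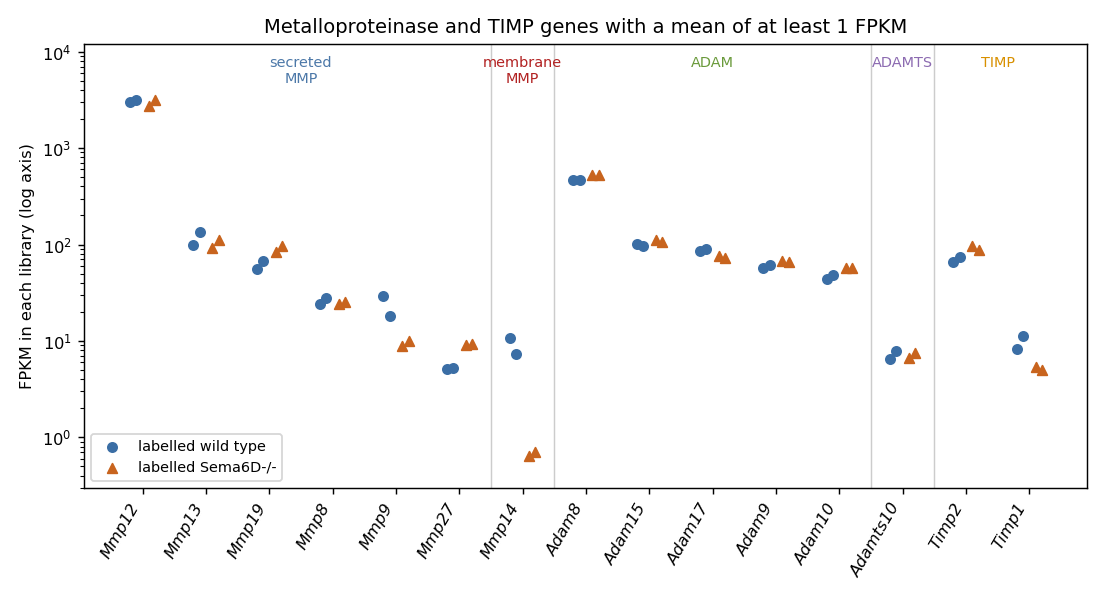
FPKM of the 15 tested members in each library on a log axis, with points coloured by label. Mmp12 sits highest, from 2732 to 3149 FPKM, and Mmp14 is the member with the widest gap between labels, from 7.32 and 10.7 down to 0.645 and 0.711.

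The largest difference among the members was that of Mmp14, the membrane type MMP that cuts fibrillar collagen at the cell surface and activates the proform of MMP2. It lies on chromosome 14, from 54431598 to 54442456 on the plus strand of GRCm38, the assembly that mm10 names. Its RefSeq start is preceded by the following 250 bases (chr14:54431348-54431597, plus strand), shown because Mmp14 is the member with the largest difference.
Mmp14: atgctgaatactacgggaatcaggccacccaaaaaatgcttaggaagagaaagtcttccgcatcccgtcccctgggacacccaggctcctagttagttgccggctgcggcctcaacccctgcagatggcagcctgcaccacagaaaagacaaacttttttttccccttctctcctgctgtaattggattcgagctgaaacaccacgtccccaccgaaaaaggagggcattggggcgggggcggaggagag

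Mmp14 was at 10.7 and 7.32 FPKM in the libraries labelled wild type and at 0.645 and 0.711 in those labelled Sema6D-/-. Both wild type libraries were high, both others were low, and the labels did not overlap. The mean fell from 8.99 ± 2.35 to 0.678 ± 0.0468 FPKM (SD, n = 2 each), 13.3-fold, with a difference of -2.55 ± 0.18 (SE, 95% interval -3.0 to -2.11) in log2(FPKM + 1) and a limma adjusted p of 0.00246. By the estimated depth, these levels rest on about 319 and 224 fragments against 18 and 20. The call was lost in a fit without a filter on low genes (adjusted p = 0.133).

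Mmp14 alone carried the membrane MMP class past the filter. The FPKM of the 7 membrane MMPs summed to 10.8 and 7.95 against 1.16 and 0.898. Mmp24 was listed at 0 in all 4 libraries, and Mmp15, Mmp16, Mmp17, Mmp23 and Mmp25 had highest library values between 0.0241 and 0.359 FPKM. Mmp2, the secreted gelatinase whose proform MMP14 and TIMP2 together activate, was also low, at 0.675 and 0.833 against 0.272 and 0.375 FPKM. These values do not overlap, rest on about 19 and 24 against 7 and 10 fragments, and did not pass without a filter (adjusted p = 0.264); Mmp2 was singled out after its values were seen.

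Among the secreted MMPs, Mmp9 was lower and Mmp19 and Mmp27 were higher under the label Sema6D-/-, of 6 tested. Of all genes tested, 4.8% were higher and 4.91% lower. Mmp9 encodes gelatinase B, known from macrophages, neutrophil granules and osteoclasts, and lies on chromosome 2 from 164940326 to 164955850. It was at 29.1 and 18.0 FPKM in the wild type libraries and at 8.78 and 9.92 in the Sema6D-/- ones. The wild type libraries were both above the others but differed among themselves, replicate 1 being the higher. Mmp9 fell from 23.6 ± 7.82 to 9.35 ± 0.805 FPKM (SD, n = 2 each), 2.52-fold, with a difference of -1.21 ± 0.21 (SE, 95% interval -1.75 to -0.67) and a limma adjusted p of 0.029. It did not pass without Sema6D-/- replicate 1 (adjusted p = 0.197) or 2 (0.142), without a filter (0.347), with eBayes without trend (0.0663) or with robust estimation (0.0514). Granulocyte markers were higher and osteoclast markers lower in sum in the libraries labelled Sema6D-/-, as given above, and a link with Mmp9 was not tested.

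Mmp19, on chromosome 10 from 128790910 to 128800827, encodes an MMP that cuts basement membrane proteins. Its levels were 55.7 and 67.8 FPKM against 83.9 and 95.7. Each Sema6D-/- library was above each wild type library. The mean rose from 61.8 ± 8.56 to 89.8 ± 8.34 FPKM (SD, n = 2 each), 1.45-fold, with a difference of 0.54 ± 0.11 (SE, 95% interval 0.26 to 0.81) and a limma adjusted p of 0.0425. It missed the threshold without wild type replicate 1 (adjusted p = 0.0884), Sema6D-/- replicate 1 (0.145) or Sema6D-/- replicate 2 (0.217), without a filter (0.385) and when eBayes used no trend (0.0938).

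In the mouse, 10 of the MMP genes lie side by side on chromosome 9, within 427.1 kb from 7272514 to 7699585. In order they are Mmp13, Mmp12, Mmp1b, Mmp3, Mmp1a, Mmp10, Mmp8, Mmp27, Mmp20 and Mmp7. The cluster held 4 tested genes, 6 under the filter and, among those 6, 3 listed at 0 in each library (Mmp1a, Mmp20 and Mmp7). Of the 4 tested genes, Mmp27 was called, beside 9.72% of all genes tested. The 250 bases before the RefSeq starts are shown for Mmp27 (chr9:7571146-7571395), its neighbour Mmp8 (chr9:7558179-7558428) and the collagenase gene Mmp13 (chr9:7272264-7272513), all on the plus strand, because Mmp27 differed between labels and the other genes did not pass. Capitals mark the motifs searched, which are named with the motif counts below.
Mmp27: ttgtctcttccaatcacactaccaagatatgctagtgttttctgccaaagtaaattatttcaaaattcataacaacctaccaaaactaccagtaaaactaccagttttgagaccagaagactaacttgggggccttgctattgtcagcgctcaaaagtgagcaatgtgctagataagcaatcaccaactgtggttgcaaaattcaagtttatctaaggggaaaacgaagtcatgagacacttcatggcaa
Mmp8: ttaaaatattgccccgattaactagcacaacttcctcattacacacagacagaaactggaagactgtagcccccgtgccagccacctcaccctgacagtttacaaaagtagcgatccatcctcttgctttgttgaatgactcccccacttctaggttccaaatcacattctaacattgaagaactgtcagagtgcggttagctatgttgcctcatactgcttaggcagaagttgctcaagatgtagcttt
Mmp13: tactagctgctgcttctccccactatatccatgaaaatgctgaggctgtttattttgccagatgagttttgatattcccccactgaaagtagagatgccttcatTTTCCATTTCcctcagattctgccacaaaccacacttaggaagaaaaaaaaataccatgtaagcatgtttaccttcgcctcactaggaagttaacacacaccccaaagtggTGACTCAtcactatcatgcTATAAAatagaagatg

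Mmp27, a stromelysin-like MMP that is little studied, was at 5.07 and 5.23 FPKM in the wild type libraries and at 9.12 and 9.23 in the Sema6D-/- ones. The libraries of 1 label lay close together and the labels stood apart. The mean rose from 5.15 ± 0.111 to 9.17 ± 0.0841 FPKM (SD, n = 2 each), 1.78-fold, with a difference of 0.73 ± 0.076 (SE, 95% interval 0.53 to 0.92) and a limma adjusted p of 0.00725. It was called without a filter too (adjusted p = 0.0475), and was lost without Sema6D-/- replicate 1 (0.0835) or 2 (0.0743). About 89 and 94 against 147 and 154 fragments stood behind these levels.

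The other 3 tested genes of the cluster had overlapping libraries. Mmp12, which encodes macrophage elastase, ranked 17 among all genes by mean FPKM and was at 3021 and 3149 against 2732 and 3148 FPKM. The low value was that of Sema6D-/- replicate 1, and the difference was -0.07 ± 0.081 (SE, 95% interval -0.28 to 0.13; limma adjusted p = 0.636). Mmp13, a collagenase, was at 98.8 and 134.7 against 91.4 and 112.7 FPKM, a difference of -0.18 ± 0.17 (95% interval -0.60 to 0.24; limma adjusted p = 0.561). Mmp8, the collagenase first known from neutrophils, ends 2.91 kb before Mmp27 begins. It was at 24.1 and 27.8 against 24.3 and 25.2 FPKM, a difference of -0.06 ± 0.079 (95% interval -0.26 to 0.14; limma adjusted p = 0.687). Mmp8 levels overlapped between labels and the granulocyte marker sums did not, and a link between them was not tested. The signs of these 3 differences turned when single libraries were left out, as the closing section gives.

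**Figure D2:**
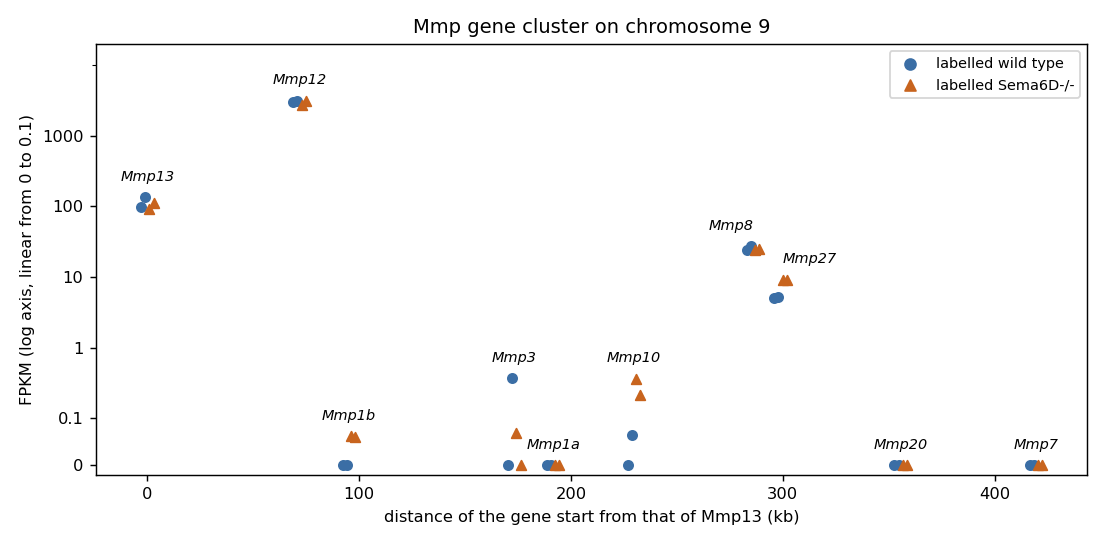
FPKM (log axis, linear from 0 to 0.1) of the 10 MMP genes of the chromosome 9 cluster against their distance in kb from the start of Mmp13, with points coloured by label. Mmp12, Mmp13 and Mmp8 overlap between labels, and Mmp27, next to Mmp8, is higher in both libraries labelled Sema6D-/-.

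The low genes of the cluster rested on a few fragments each. Mmp10, a stromelysin, was listed at 0 and 0.0653 against 0.365 and 0.211 FPKM, and Mmp3, another stromelysin, at 0 and 0.371 against 0.0691 and 0. Mmp1b, an interstitial collagenase gene, was listed at 0 in both wild type libraries and at 0.0615 and 0.0593 in the others. A fit without a filter called Mmp1b and also Adam32, listed at 0 and 0 against 0.0491 and 0.0474 (adjusted p = 0.00688 each), where 0.92% of all 23259 genes were called. Each value of Mmp1b and Adam32 that was not 0 is worth about 1 fragment, and a listed 0 may stand for an estimate that failed, since even the abundant housekeeping gene Gapdh was listed at 0 in 3 libraries. Mmp1b also overlaps the far more abundant Mmp12 on the other strand.

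Among the ADAMs, Adam10 was higher and 4 other genes that passed the filter did not pass the test. Of all genes tested, 9.72% passed. Adam10 encodes the protease that cuts Notch, CXCL16 and many other membrane proteins, and lies on chromosome 9 from 70678944 to 70780229. It was at 44.2 and 48.0 FPKM in the wild type libraries and at 57.7 FPKM in each Sema6D-/- library. The labels did not overlap. Adam10 rose from 46.1 ± 2.64 to 57.7 ± 0.0193 FPKM (SD, n = 2 each), 1.25-fold, with a difference of 0.32 ± 0.057 (SE, 95% interval 0.18 to 0.46) and a limma adjusted p of 0.0295. This was lost without wild type replicate 1 (adjusted p = 0.0803), Sema6D-/- replicate 1 (0.179) or Sema6D-/- replicate 2 (0.157), without a filter (0.23) and when eBayes used no trend (0.0792).

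Adam17, the TNF-converting enzyme, lay the other way, at 85.0 and 88.9 against 76.1 and 73.1 FPKM. Its labels did not overlap either, but its difference of -0.22 ± 0.050 (SE, 95% interval -0.34 to -0.09) missed the threshold (limma adjusted p = 0.0557). The ratio of Adam10 to Adam17 in FPKM was 0.520 and 0.540 against 0.758 and 0.790. Adam17 overlaps Iah1 on the other strand, which was at 89.8 and 85.0 against 95.6 and 87.2 FPKM.

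Adam8, a sheddase of leukocytes, was the most abundant ADAM gene and ranked 122 among all genes. It was at 462 and 466 against 528 and 524 FPKM, without overlap, and just missed the threshold (0.18 ± 0.041, 95% interval 0.08 to 0.28; limma adjusted p = 0.0537). With robust estimation both Adam8 (adjusted p = 0.0375) and Adam17 (0.0434) passed. Adam9, a widely expressed sheddase, was at 57.5 and 61.2 against 66.7 and 66.2 FPKM (0.16 ± 0.052, 95% interval 0.03 to 0.29; limma adjusted p = 0.128). Adam15, another membrane member of the family, was at 101 and 97.5 against 111 and 107 (0.13 ± 0.048, 95% interval 0.01 to 0.25; limma adjusted p = 0.165). The labels did not overlap for any of the 5 tested ADAM genes, beside 56.2% of all genes tested. Of the 5, 4 had a difference above 0, beside 5149 of all 10115 genes tested. Of the same 5, 1 passed, beside 9.72% of all genes tested.

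The remaining ADAMs were low or listed at 0. Adam19, a sheddase known for neuregulin, was the one low member with a library of at least 1 FPKM, at 0.944 and 1.24 against 0.872 and 0.859. Listed at 0 in all 4 libraries were 18 ADAM genes, Adam12, Adam18, Adam1b, Adam2, Adam24, Adam25, Adam26a, Adam26b, Adam28, Adam29, Adam3, Adam30, Adam34, Adam39, Adam5, Adam6a, Adam6b and Adam7, several of which are known from the testis. Of the low ADAMs that were not listed at 0 throughout, all but Adam19 stayed under 1 FPKM in each library.

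The secreted ADAMTS class had 1 tested gene among 19. Adamts10, known for its binding to fibrillin, was at 6.56 and 7.84 against 6.74 and 7.57 FPKM, with overlapping libraries and a difference of -0.01 ± 0.11 (SE, 95% interval -0.28 to 0.27; limma adjusted p = 0.984). Another 11 had highest library values between 0.0162 and 0.366 FPKM, and 7 were listed at 0 throughout: Adamts15, Adamts16, Adamts17, Adamts18, Adamts19, Adamts3 and Adamts8. The aggrecanase genes Adamts4 and Adamts5 were among the low ones.

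**Figure D3:**
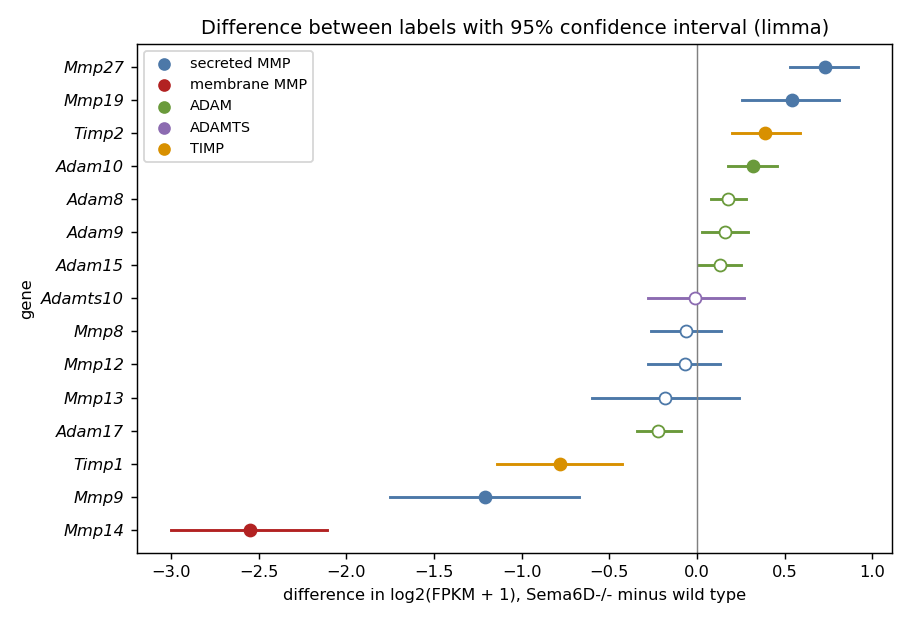
Difference in log2(FPKM + 1), Sema6D-/- minus wild type, of the 15 tested members with 95% intervals from limma, coloured by class and filled where the test was passed. Mmp14 at -2.55 and Mmp9 at -1.21 lie farthest below 0, and Mmp27 at 0.73 and Mmp19 at 0.54 farthest above.

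The 2 inhibitors that passed the filter went opposite ways: Timp1 was lower and Timp2 higher under the label Sema6D-/-. Both were called, beside 9.72% of all genes tested. The 250 bases before their RefSeq starts are shown since both genes were called in opposite directions, Timp1 on the plus strand (chrX:20869916-20870165) and Timp2 on the minus strand (chr11:118355412-118355661).
Timp1: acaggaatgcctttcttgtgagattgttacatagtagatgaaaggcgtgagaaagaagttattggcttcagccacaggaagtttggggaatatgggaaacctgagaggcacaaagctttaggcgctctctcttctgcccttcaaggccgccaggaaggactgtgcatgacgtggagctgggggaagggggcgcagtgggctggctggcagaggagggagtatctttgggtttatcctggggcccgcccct
Timp2: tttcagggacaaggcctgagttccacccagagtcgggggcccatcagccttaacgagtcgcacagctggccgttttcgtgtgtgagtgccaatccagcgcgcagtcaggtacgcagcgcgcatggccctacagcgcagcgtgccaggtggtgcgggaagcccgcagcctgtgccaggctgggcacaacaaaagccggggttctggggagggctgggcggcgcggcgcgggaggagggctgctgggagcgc

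Timp1 encodes a secreted inhibitor that also binds the proform of MMP9, and lies on chromosome X from 20870166 to 20874737. It was at 8.30 and 11.1 FPKM in the wild type libraries and at 5.35 and 5.0 in the Sema6D-/- ones. Both wild type libraries were the higher ones. Timp1 fell from 9.72 ± 2.02 to 5.17 ± 0.244 FPKM (SD, n = 2 each), 1.88-fold, with a difference of -0.78 ± 0.14 (SE, 95% interval -1.14 to -0.43) and a limma adjusted p of 0.0302. About 68 and 93 against 40 and 39 fragments stood behind these values. It did not pass without wild type replicate 2 (adjusted p = 0.0604), Sema6D-/- replicate 1 (0.174) or Sema6D-/- replicate 2 (0.176), without a filter (0.313), or with eBayes without trend (0.0599). Timp1 lies inside Syn1, a synapsin gene on the other strand that was at 6.56 and 7.30 against 9.12 and 8.33 FPKM (limma adjusted p = 0.119), and the strand setting of the quantification is not given in the sources used here. The reads of this pair cannot be told apart without strand, and the values of Syn1 lay in the other direction.

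Timp2 encodes the inhibitor that forms a complex with MMP14 when that enzyme activates the proform of MMP2, and lies on chromosome 11 from 118301061 to 118355411. It was at 66.1 and 73.9 FPKM against 96.8 and 87.8, so that each Sema6D-/- library was above each wild type library. Timp2 rose from 70.0 ± 5.54 to 92.3 ± 6.34 FPKM (SD, n = 2 each), 1.32-fold, with a difference of 0.39 ± 0.077 (SE, 95% interval 0.20 to 0.59) and a limma adjusted p of 0.0367. The call was lost without wild type replicate 1 (adjusted p = 0.098), Sema6D-/- replicate 1 (0.207) or Sema6D-/- replicate 2 (0.108), without a filter (0.328) and with eBayes fitted without trend (0.0897).

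Timp3, an inhibitor bound to matrix that also acts on ADAM17, was at 0.472 and 0.989 against 0.910 and 0.735 FPKM, and Timp4 at 0.167 and 0 against 0.0911 and 0.176. Neither reached the filter, and the labels overlapped for both. Like Timp1, they lie inside synapsin genes on the other strand, Syn3 and Syn2. Timp2 thus made up 88.1% and 85.9% of the inhibitors' FPKM under the label wild type and 93.8% and 93.7% under the label Sema6D-/-. Timp2 over Timp1 was 7.97 and 6.63 against 18.1 and 17.6.

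Summed by class, secreted proteases (MMPs and ADAMTS, 35 genes) were at 3242 and 3413 FPKM against 2958 and 3409.6, and the labels overlapped. Mmp12 made up 92.3% to 93.2% of that sum in each library. Without it, in an alternative added after the data were seen, the sums were 221 and 264 against 226 and 262, which overlap too. Membrane proteases (membrane MMPs and ADAMs, 39 genes classed by symbol and not by activity) were at 762 and 772 against 843 and 830.4 FPKM without overlap. Adam8 made up 60.4% to 63.1% of them. Without Adam8 they were at 301 and 306 against 315 and 306. The inhibitors summed to 75.0 and 86.1 against 103 and 93.7 FPKM, without overlap. These sums carry no test, and each is led by 1 gene.

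By count, 2 of 7 tested secreted proteases were higher and 1 lower, beside 4.8% and 4.91% of all genes tested. Their median difference was -0.06, against 0.00 over all genes. Of 6 tested membrane proteases 1 was higher and 1 lower, beside the same shares, with a median of 0.15. The lower 1 was Mmp14, which passed the filter only through the label wild type and so had to differ. Secreted protease over inhibitor FPKM was 43.2 and 39.7 against 28.7 and 36.4, and membrane protease over inhibitor 10.2 and 8.97 against 8.17 and 8.86. For single pairs, Mmp14 over Timp2 was 0.161 and 0.0991 against 0.00666 and 0.00809. Mmp9 over Timp1 was 3.51 and 1.62 against 1.64 and 1.98, where the high value is that of wild type replicate 1 and the labels overlap.

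**Figure D4:**
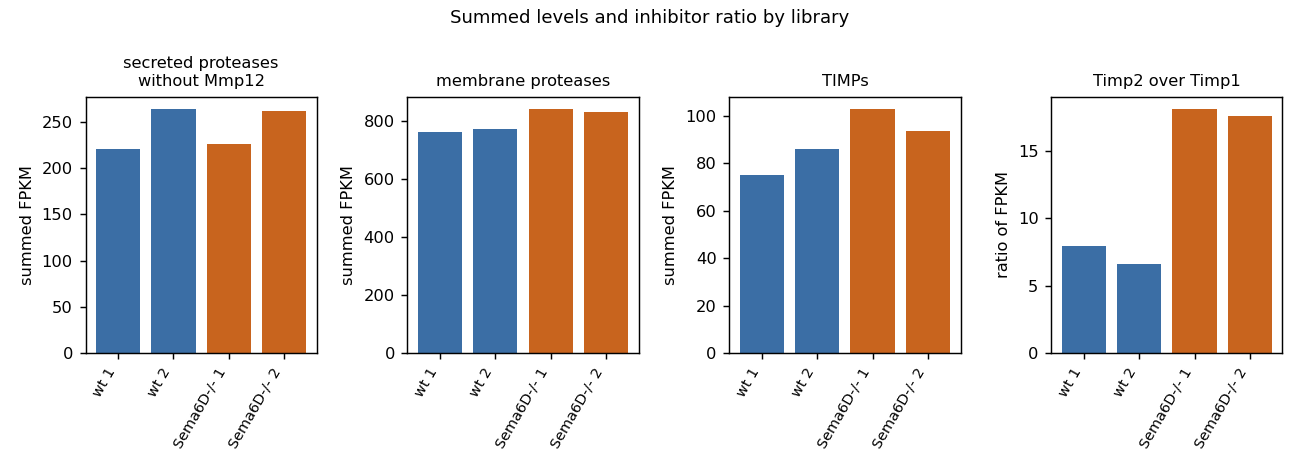
Bars from 0 give, for each library, the summed FPKM of secreted proteases without Mmp12, of membrane proteases and of TIMPs, and the ratio of Timp2 to Timp1. Secreted proteases overlap between labels, membrane proteases and TIMPs are higher in both Sema6D-/- libraries, and the ratio runs from 6.63 and 7.97 to 17.6 and 18.1.

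Promoters of RefSeq, in GRCm38.p6, were found for 48 of the 78 members and for 11 of the 15 tested ones, with no entry for Mmp9, Mmp19, Adam9 and Adamts10. In the 250 bases before the start, 4 motifs were searched on both strands: TGANTCA of AP-1, TTC and GAA with any 4 bases between them of STAT factors, GAAA and GAAA with any 2 bases between them of the interferon response and the TATA box TATAAA. They occur in 6.75%, 5.85%, 2.98% and 12.4% of the 32851 promoters of all genes. Of the 10 genes of the chromosome 9 cluster, 8 held the AP-1 motif: Mmp13, Mmp12, Mmp1b, Mmp3, Mmp1a, Mmp10, Mmp20 and Mmp7. The neighbours Mmp8 and Mmp27 did not. A gene was counted if any of its promoters held the motif, while the shares of all genes are per promoter. For Mmp12 the match lies in a promoter within the gene (chr9:7347124-7347373), and the bases before its RefSeq start (chr9:7344147-7344396) hold none. Another promoter of Mmp7 holds none either. Over all 48 members with a promoter, the AP-1 motif was found in 11. The promoter of Mmp13 held AP-1 at 35, the TATA box at 16 and the interferon response motif at 146 bases before the start, none overlapping another, and a promoter of Mmp12 held AP-1 at 44. None of the 5 called members with a promoter, Mmp14, Mmp27, Timp1, Timp2 and Adam10, held any of the 4. A match describes letters only, and a missing match says that these letters are not in this window.

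Genes that process, escort or restrain these proteases were mostly not called. Of 36 listed, 15 were tested, 1 was higher and 1 lower, beside 4.8% of all genes higher and 4.91% lower, and the median difference was 0.11. Tspan14, one of the tetraspanins that escort ADAM10 to the surface, was at 46.6 and 46.8 against 56.9 and 60.4 FPKM, without overlap. It rose by a difference of 0.32 ± 0.052 (SE; limma adjusted p = 0.0225) and was lost without any 1 library (adjusted p = 0.0694 to 0.127). Tspan5 and Tspan17, tetraspanins of the same group singled out after their values were seen, were at 28.8 and 32.6 against 25.2 and 28.7 and at 31.3 and 27.9 against 32.6 and 30.8, and neither passed (limma adjusted p = 0.289 and 0.468). Serpinb2, an inhibitor of plasminogen activators, was at 2.51 and 4.01 against 1.12 and 0.898 FPKM and fell by 1.07 in log2(FPKM + 1) (limma adjusted p = 0.0333). A fit without a filter did not call it (limma adjusted p = 0.327). It was lost without wild type replicate 2 (adjusted p = 0.0725), Sema6D-/- replicate 1 (0.158) or 2 (0.172).

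Several other genes of that list had labels that did not overlap, beside 56.2% of all genes tested, but did not pass. The urokinase gene Plau, whose product makes plasmin, was at 107 and 77.8 against 123 and 134 FPKM (limma adjusted p = 0.114; 0.0144 without wild type replicate 1), and its receptor gene Plaur at 78.8 and 75.6 against 87.0 and 103 (0.107). The proprotein convertase gene Pcsk7 was at 15.0 and 13 against 10.9 and 11.5 FPKM (limma adjusted p = 0.111). Rhbdf2, the partner that carries ADAM17 to the surface, was at 25.7 and 24.5 against 22.7 and 22.1 (limma adjusted p = 0.168).

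Among 26 tested substrates that ADAMs or MMPs are known to release from the membrane, 4 were higher and 5 lower, beside 4.8% and 4.91% of all genes tested, with a median of 0.07. Csf1, the macrophage growth factor, was at 10.7 and 13 against 2.94 and 2.85 FPKM and fell 4.09-fold (-1.72 ± 0.11, SE; limma adjusted p = 0.00208). Cxcl16, a membrane chemokine cut by ADAM10, was at 40.2 and 43.9 against 24.0 and 24.3 and fell 1.74-fold (limma adjusted p = 0.00357), and the receptor tyrosine kinase gene Axl was at 58.6 and 49.2 against 20.3 and 24.0 and fell 2.43-fold (limma adjusted p = 0.00496). Itgam, an integrin chain, fell from 294 ± 17.1 to 212 ± 4.51 FPKM (SD, n = 2 each; limma adjusted p = 0.00963). The libraries of these 4 genes did not overlap, beside 56.2% of all genes tested. The 4 were named by smallest p, so this adds nothing to their calls. Without Sema6D-/- replicate 1, Cxcl16 (adjusted p = 0.0523), Axl (0.0518) and Itgam (0.0981) were lost, and Itgam was lost without replicate 2 as well (0.0743).

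On the higher side, Tnfrsf1b, a TNF receptor that ADAM17 releases, was at 193 and 198 against 289 and 305 FPKM and rose 1.52-fold (0.60 ± 0.048, SE; limma adjusted p = 0.00348). Trem2, a lipid-sensing receptor of macrophages cut by ADAM10 and ADAM17, was at 653 and 728 against 1149 and 1116 and rose 1.64-fold (0.71 ± 0.065; limma adjusted p = 0.00496), a call lost without Sema6D-/- replicate 1 (adjusted p = 0.067). Nrp1, Aplp2 and the lower Icam1 complete the count and were named after their values were seen, with adjusted p-values of 0.0306, 0.0353 and 0.0141. Nrp1 and Icam1 were lost without Sema6D-/- replicate 1 (adjusted p = 0.188 and 0.129) or 2 (0.166 and 0.0929), and Aplp2 without any 1 library (highest adjusted p = 0.193). Tnf, the classic substrate of ADAM17 and also chosen after its values were seen, was at 16 and 13.2 against 11.1 and 15.1 FPKM, with overlap (limma adjusted p = 0.604), and its difference of -0.16 turned to 0.05 without Sema6D-/- replicate 1.

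Of 30 matrix genes, 9 were tested, 0 were higher and 1 lower, beside 4.8% and 4.91% of all genes, and the median difference was -0.34. All 9 differences were below 0, but Col6a2 passed the filter only through the label wild type, which fixed its sign, and 5 others turned above 0 when 1 library was left out. Spp1, the matrix protein osteopontin that macrophages secrete and MMPs cut, was at 2199 and 1801 against 924 and 893 FPKM. Both wild type libraries were higher, and Spp1 fell 2.2-fold (-1.13 ± 0.099, SE; limma adjusted p = 0.00461), a call lost without Sema6D-/- replicate 1 (adjusted p = 0.0606) or 2 (0.0543). The laminin chain gene Lamc1 was at 5.59 and 6.18 against 4.69 and 4.52 FPKM (limma adjusted p = 0.122) and the fibronectin gene Fn1 at 9.42 and 13 against 8.73 and 8.51 (0.242). Col6a1 and Col6a2, collagen chains, were at 0.854 and 3.68 against 1.11 and 0.957 and at 1.0 and 2.79 against 0.656 and 0.753. Both were high in wild type replicate 2, the library with the highest sum of fibroblast markers. That marker list shares Col1a1, Col1a2, Col3a1, Dcn and Postn with the matrix list, so the lists are not independent. Dcn, a proteoglycan of fibroblasts, was at 1.46 and 2.47 against 2.23 and 0.468. Without wild type replicate 1, 5 matrix genes were lower. Without wild type replicate 2, the difference was above 0 for 4 of the 9, Col1a1 (0.24), Col1a2 (0.15), Col6a1 (0.13) and Bgn (0.33), and without Sema6D-/- replicate 2 for Col1a1 (0.11) and Dcn (0.14). Col1a1, Col1a2 and Bgn were named after their values were seen.

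**Figure D5:**
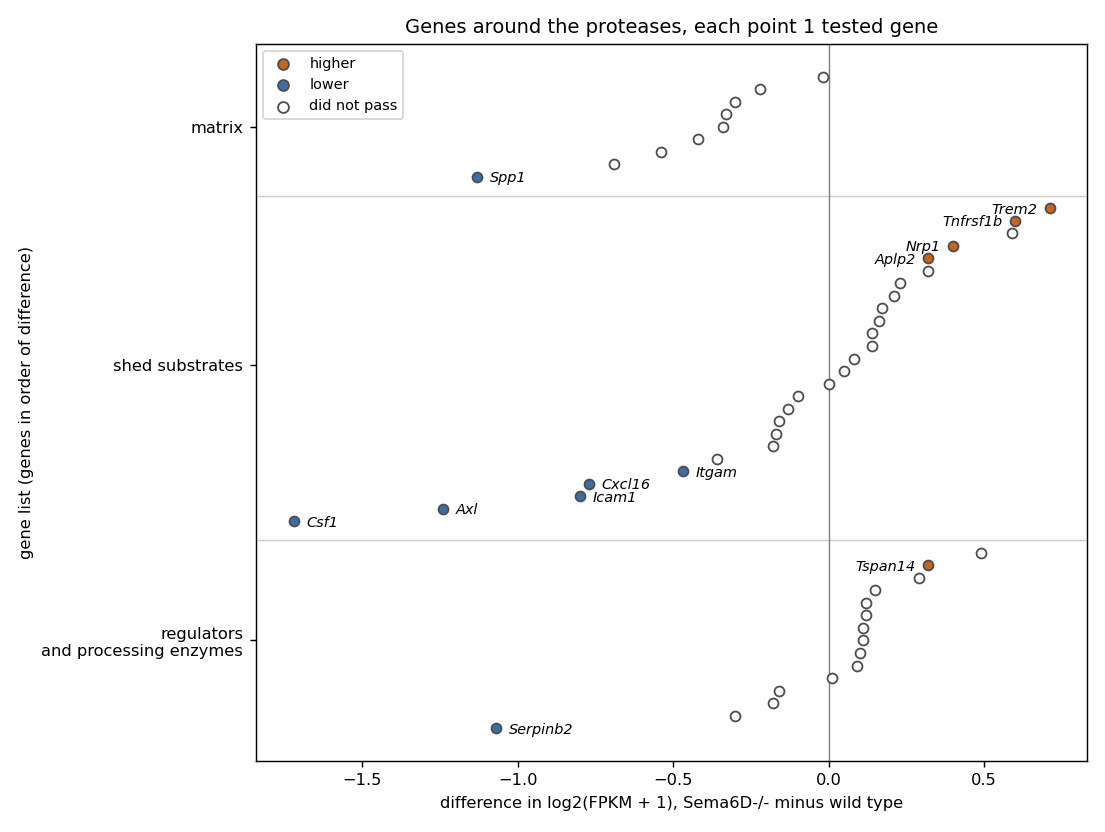
Difference in log2(FPKM + 1), Sema6D-/- minus wild type, of each tested gene of the lists of regulators and processing enzymes, shed substrates and matrix, with genes that passed the test coloured and named. With all 4 libraries the 9 matrix genes lie below 0, 5 of which turn when 1 library is left out, and the shed substrates run from Csf1 at -1.72 to Trem2 at 0.71.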

How the data were processed

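RNA of 4 macrophage libraries was extracted with a kit for miRNA and made into strand-specific libraries (SureSelect, Agilent), per the labels' protocols. The authors deposited FPKM from Cuffnorm 2.2.1, after TopHat2 2.0.13, Bowtie2 2.2.3 and SAMtools 0.1.19 on mm10, per the submitters' processing notes. Which annotation and strand setting they used, and how they treated multi-mapping reads, is not given in the sources used here. The unit is scaled by transcript length and library size. Fragment numbers in the text are estimates from the smallest steps of the values and GENCODE transcript lengths.

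Tests used limma 3.58.1 (R 4.3.3), two-sided, with an intensity trend in eBayes, on log2(FPKM + 1), which understates the change of low genes. It took in the 10115 genes that averaged 1 FPKM or more, with Benjamini-Hochberg adjustment and a threshold of 0.05. Of 23284 symbols, 25 held no value. The fit was checked on simulated data. Replicate numbers do not pair the libraries (r = -0.018 between deviations over 10115 genes).

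The members and lists were chosen with earlier results of these data known. Named were members with a mean of at least 1 FPKM, each Timp gene, low members that reach 1 FPKM in a library, are listed at 0 throughout or are called without a filter, up to 6 genes per list by smallest p, and Sema6d. Positions and promoters are from RefSeq (GRCm38.p6). Alternatives were other pseudocounts, filters, scalings and variance models, a replicate block and leaving out each library.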

Additional observations from a re-analysis of the deposited data

How the results depend on the processing

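Counts of called genes depended on the filter, the variance model and single libraries. Without a filter 115 of all genes were higher and 99 lower, against 486 and 497. Of the members 3 were then higher, and 0 were lower, with 0 lower secreted MMPs, 0 lower membrane MMPs and 0 TIMPs in either direction. The higher ones were Mmp27 and the untested Mmp1b and Adam32, whose values rest on about 1 fragment. Among the lists, 0 regulators and 0 shed substrates were higher, 1 shed substrate lower, and 1 matrix gene higher and 0 lower. That substrate was Ereg, at 0.0256 and 0.0250 against 0 and 0 FPKM. The matrix gene was Nid2, at 0 and 0 against 0.0235 and 0.0227. Neither reached the filter, and the shed substrates and the matrix gene called with it were all lost. The 1 regulator lower without a filter was Pcsk6, at 0.0246 and 0.0240 against 0 and 0 FPKM, also under the filter. Serpinb2 was lost there (limma adjusted p = 0.327). With eBayes without trend 261 of all genes were higher and 327 lower, and 1 member higher and 1 lower. That left 1 higher and 0 lower secreted MMPs, 0 ADAMs and 0 TIMPs, 0 regulators in either direction and 2 higher shed substrates. With robust estimation 2 ADAMs were higher and 1 lower, and 0 secreted MMPs were lower. At a mean of at least 5 FPKM 0 regulators were lower, since Serpinb2, at a mean of 2.13, had no value. Mmp14, at a mean of 4.83, had no value either.

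With the replicate number as a block, 300 of all genes and 2 members were higher, with 0 ADAMs and 0 TIMPs higher (Adam10, adjusted p = 0.0535; Timp2, 0.0757) and 0 regulators lower. The numbers pair no samples, since the correlation of same-numbered libraries was -0.018.

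Leaving out 1 library gave 72 to 276 higher and 87 to 290 lower genes, and 0 to 4 higher and 1 to 3 lower members. The class counts ran from 0 to 2 for higher secreted MMPs and from 0 to 1 for lower secreted MMPs, higher ADAMs, and TIMPs in each direction. For the lists they ran from 0 to 1 for regulators in each direction, 1 to 4 for higher and 1 to 5 for lower shed substrates, and 0 to 5 for lower matrix genes. In each of the fits without Sema6D-/- replicate 1 or without replicate 2, 0 members were higher. The cause was not tested, and fewer samples weaken each of these fits.

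Signs turned for 4 of the 15 tested members, none of which passed, and for 3 of 15 regulators, 3 of 26 shed substrates and 5 of 9 matrix genes when 1 library was left out. Among the genes named by rule these were Adamts10 (0.01 with quantile normalization, -0.12 to 0.11 with 1 library left out), Mmp12 (-0.17 to 0.03), Mmp13 (-0.40 to 0.04), Mmp8 (-0.16 to 0.04), Col6a1 (-1.20 to 0.13) and Dcn (-0.99 to 0.14). None of the 7 called members turned sign under any of the 13 alternatives that gave it a value. Mmp14 passed the filter only through the label wild type, which fixed its sign. Without Mmp12, chosen after seeing the data, secreted proteases averaged 242 FPKM under the label wild type and 244 under Sema6D-/-. Without Adam8, also chosen then, membrane proteases averaged 303 and 311. Depth limits the low members, where 1 fragment is near the listed values.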

Other observations

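In each of the 4 files, 212 gene rows stand out of alphabetical order, 121 genes lower under the label Sema6D-/- first and then 91 higher, each by at least 2-fold. Mmp14 is the 1 member among them.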
